A study of Bos taurus with 48 samples.

Results

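The miR-424, miR-503, miR-450 and miR-542 cluster was followed in cow mammary gland and liver through the 9 rows of the miRNA table that carry these names, out of 524 bovine miRNAs. The rows were selected by name, with any arm or copy suffix: miR-424-5p and miR-424-3p, miR-503-5p and miR-503-3p, miR-450a, miR-450a-1, miR-450a-2, miR-450b and miR-542-5p, each written with the bovine prefix in the table (bta-miR-503-5p). The cluster was put forward with earlier results of the same table known, and miR-503-5p was the member singled out then. Its levels, differences and ratios are therefore given as a description, with no test. Its correlations with the other members were tested along with theirs. The other members were tested in fits across the whole table, and these tests are not independent evidence either.

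A miRNA gene gives a hairpin RNA from which a 5p and a 3p arm are cut, and usually the product of 1 arm is kept while the other decays. In the RefSeq annotation of the ARS-UCD2.0 assembly the genes lie side by side on chromosome X, in the order MIR450B, MIR450A-1, MIR450A-2, MIR542, MIR503 and MIR424, with HPRT1 on one side and PLAC1 on the other. MIR3601 stands between MIR542 and MIR503. Neighbouring miRNA genes of this kind are commonly made from a shared primary transcript. The seed is the part of a miRNA that pairs with its targets. In human and mouse, miR-424 (miR-322 in mouse) and miR-503 share all or most of their seed with the miR-15 and miR-16 family. They are known there as repressors of cell cycle genes. In the mouse mammary gland this gene pair is known for its part in involution, the regression of the epithelium after weaning.

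Small RNA libraries had been sequenced from 48 samples of cows: mammary parenchyma, where the epithelium grows, the mammary fat pad that surrounds it, and liver. The feeding labels are milk replacer ad libitum, milk replacer in restricted amount, and control, which is not described further. Each tissue had 6 samples of the ad libitum group and 6 of the restricted group. Control samples numbered 3 in parenchyma, 4 in the fat pad and 5 in the liver. The labels give neither age nor batch nor which samples shared an animal, so that p-values measure the spread between these samples.

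The values are normalized read counts, that is reads divided by 1 size factor per library. A miRNA listed at 0 can have had up to 5 reads. Estimated reads per library ranged from 6193678 to 11291532 in parenchyma, from 2123962 to 9522666 in the fat pad and from 826776 to 5146724 in the liver, and the value that 5 reads stand for was at most 2.89, 11.7 and 31.0 in these tissues. The estimated reads are sums over all rows. Rows for copies of 1 miRNA can hold the same reads, so that these sums may be too high. The tissue labels were checked with the mean log2(value + 1) of listed miRNAs. Hepatocyte miRNAs (miR-122, miR-192, miR-194) stood between 17.92 and 18.68 in the liver, against 7.48 to 11.45 in both mammary tissues. Adipocyte-linked miRNAs (miR-378, miR-196a, miR-335) stood between 11.54 and 12.07 in the fat pad, against 4.62 to 9.66 in milk replacer fed parenchyma. In control parenchyma replicates 1 and 2 they were at 11.69 and 11.06, nearer to the fat pad. Replicate 18, at 9.73, was nearer to milk replacer fed parenchyma. Epithelial miRNAs (the miR-200 family, miR-205, the miR-183 cluster and miR-375, 10 in all) stood between 10.85 and 11.81 in milk replacer fed parenchyma. In the 3 control parenchyma samples they were at 3.76, 2.46 and 3.66 (replicates 1, 2 and 18), and in the fat pad between 0.42 and 3.03. Control parenchyma thus had far less of the epithelial miRNAs than milk replacer fed parenchyma, close to the fat pad, and its replicate 18 also had immune miRNAs (miR-142 arms, miR-150, miR-155, miR-223) at 13.06, against 8.16 to 9.33 in milk replacer fed parenchyma.

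The names of the miR-450a copies could not be treated as separate molecules in this table. miR-450a was above 0 in 2 libraries, and these were the same 2 in which miR-450a-1 was at 0: replicate 10 of the restricted group in parenchyma (1103 normalized counts) and in the fat pad (2300 normalized counts). There its value was 98.7% and 98.8% of that of miR-450a-2. In the other 46 libraries miR-450a-1 was 97.5% to 100% of miR-450a-2, and it equalled it in 16 of the 17 liver libraries. The 3 names were therefore counted once, through miR-450a-2, which leaves 7 distinct miRNAs, 6 of them tested where their mean was at least 10.

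miR-503-5p was the member with the largest difference between milk replacer fed and control samples in both mammary tissues. In parenchyma its lowest, median and highest values were 347, 435 and 591 normalized counts in the ad libitum group and 239, 428 and 583 in the restricted group, against 41.7, 253 and 20.6 in control replicates 1, 2 and 18. All but 1 of the 12 milk replacer fed samples lay above the highest control sample. In the fat pad its values were 78.9, 149 and 311 in the ad libitum group and 58.9, 102 and 229 in the restricted group, against 14.0, 21.7, 17.2 and 43.4 in the 4 control samples. The milk replacer fed samples of the fat pad did not overlap the controls. The lowest control value, 14.0 in replicate 2, was the smallest value above 0 in its library. In the liver it had 13.7, 58.1 and 117 in the ad libitum group and 16.8, 52.5 and 116 in the restricted group, against 46.4, 91.3, 45.0, 31.4 and 51.7 in the 5 controls, and the 3 groups overlapped throughout. Between milk replacer fed and control samples, 45.4% of all miRNAs were called in parenchyma and 11% in the fat pad. How many miRNAs separated these groups without overlap was not counted.

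**Figure D1:**
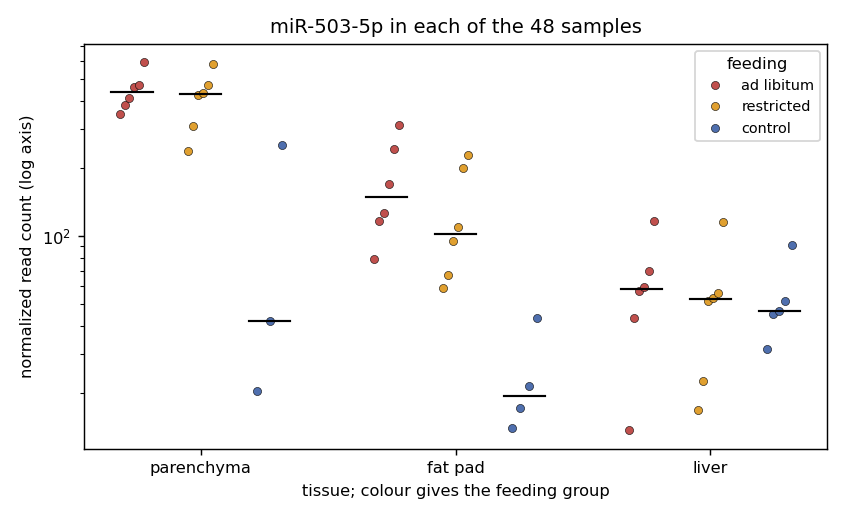
miR-503-5p in each sample, as normalized read count on a log axis, by tissue and feeding group, with a black line at the group median. Control samples of the fat pad (14.0 to 43.4) lie below all milk replacer fed samples of that tissue (58.9 to 311), while the liver groups overlap.

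On the log2(value + 1) scale, the milk replacer groups minus control came to 2.75 (SE 0.49) in parenchyma, 2.54 (SE 0.40) in the fat pad and -0.08 (SE 0.49) in the liver for miR-503-5p. Control replicates 2 and 18 each weighed on the parenchyma value: it was 3.77 without replicate 2 and 1.99 without replicate 18. In the fat pad, leaving out any 1 library gave 2.34 to 2.86. Ad libitum minus restricted came to 0.15 (SE 0.44) in parenchyma, 0.50 (SE 0.40) in the fat pad and 0.21 (SE 0.53) in the liver, each close to or within its error. Over the 12 milk replacer fed samples of a tissue, miR-503-5p averaged 426 ± 102 normalized counts in parenchyma, 151 ± 80 in the fat pad and 56.3 ± 33.2 in the liver (SD, n = 12 each). The parenchyma and fat pad ranges (239 to 591 and 58.9 to 311) overlapped, and the fat pad and liver ranges (58.9 to 311 and 13.7 to 117) did too. The parenchyma and liver ranges did not. The log2 differences were 1.64 for parenchyma minus fat pad, 3.11 for parenchyma minus liver and 1.47 for fat pad minus liver (SE 0.30 each). Over all 48 samples, controls included, the last came to 0.60.

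In parenchyma all 10 epithelial miRNAs were called higher in the milk replacer fed than in the control samples (median log2 difference 8.23), and both endothelial miRNAs (the miR-126 arms), 2 of 5 immune, 2 of 3 hepatocyte, 1 of 3 adipocyte-linked and 1 of 3 erythroid miRNAs were called lower. Of 5 smooth muscle and stromal miRNAs, 1 was called higher and 2 lower. Feeding and tissue makeup cannot be told apart there. In the fat pad the epithelial list was at 0.42 to 3.03 in milk replacer fed samples and at 0.43 to 1.70 in control samples, and 2 of its 5 tested miRNAs were called higher, while 1 of 2 endothelial, 1 of 5 immune and 1 of 5 smooth muscle and stromal miRNAs were called lower. The part of such cells in the fat pad difference was not tested. In bulk tissue, fewer cells of a type and less RNA per cell cannot be told apart.

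The other arm of the same hairpin, miR-503-3p, was not called between milk replacer fed and control samples in either mammary tissue (limma adjusted p = 0.264 in parenchyma and 0.356 in the fat pad). In the fat pad its lowest, median and highest values were 19.5, 49.6 and 107.1 normalized counts in the ad libitum group and 17.1, 38.5 and 66.5 in the restricted group, against 18.7, 43.3, 13.4 and 41.6 in the controls, and the groups overlapped. In parenchyma it lay between 8.90 and 34.8 in milk replacer fed samples, against 67.2, 17.3 and 0 in control replicates 1, 2 and 18. It was listed at 0 in all 17 liver libraries. Taking each of the 12 milk replacer fed liver libraries at 5 reads, its mean was at least 1.82-fold higher in parenchyma and at least 3.61-fold higher in fat pad.

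The ratio of the arms within a library does not depend on the size factor. miR-503-5p over miR-503-3p ranged from 11.0 to 31.6 in milk replacer fed parenchyma, against 1.35 to 8.79 in milk replacer fed fat pad, with medians of 16.4 and 3.02. In the control fat pad it ranged from 0.50 to 1.29 (median 0.88), below all 12 milk replacer fed fat pad samples. The control fat pad ratios rest on few reads, with 8 to 38 of miR-503-3p per library. There miR-503-5p in replicate 2 was at 14.0, the smallest value above 0 in its library. In control parenchyma the ratio of the arms was 0.62 in replicate 1 and 14.6 in replicate 2, with miR-503-3p at 0 in replicate 18, so that control and milk replacer fed parenchyma overlapped. miR-503-5p over miR-424-5p did not overlap between them in either mammary tissue: 0.53 to 1.98 in milk replacer fed parenchyma against 0.096 to 0.19 in control parenchyma, and 0.084 to 0.43 in milk replacer fed fat pad against 0.025 to 0.055 in control fat pad. In the liver the milk replacer and control ranges of this ratio (0.056 to 0.76 and 0.082 to 0.25) overlapped. These ratios contain miR-503-5p and carry no test.

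**Figure D2:**
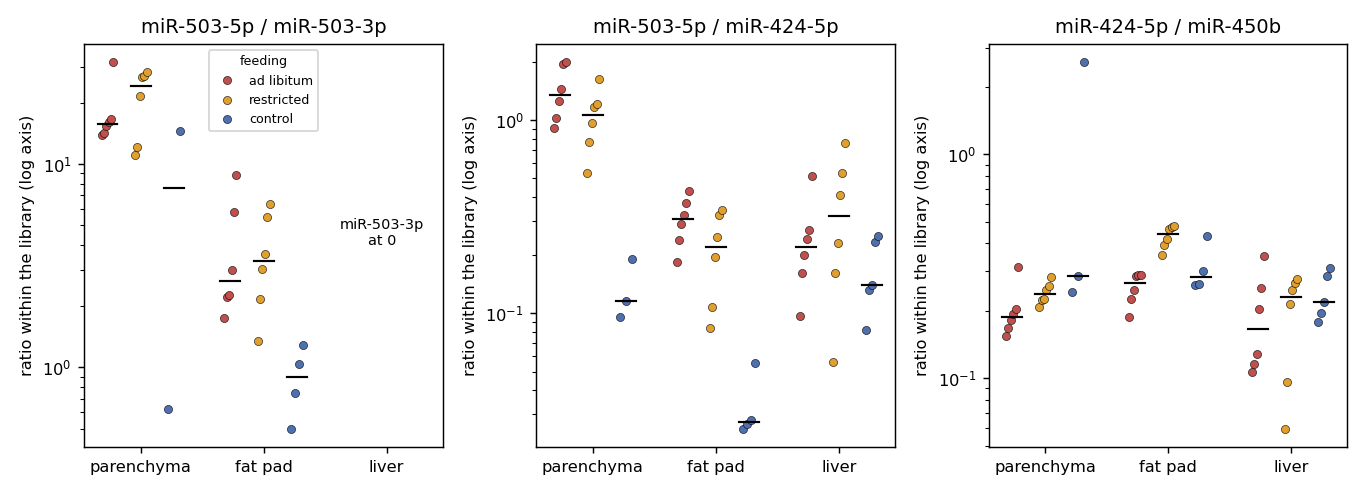
Ratio of 2 members within each library on a log axis, by tissue and feeding group, with a black line at the group median; libraries with a member at 0 are left out. miR-503-5p over miR-503-3p is at 11.0 to 31.6 in milk replacer fed parenchyma and 1.35 to 8.79 in milk replacer fed fat pad, and miR-424-5p over miR-450b separates ad libitum from restricted fat pad.

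Between the mammary tissues 2 tested members were lower in parenchyma, while miR-503-5p had its higher mean there. Of 5 tested members, 0 were called higher and 2 were called lower in milk replacer fed parenchyma relative to fat pad (limma), in a comparison in which 74.5% of 345 miRNAs were called. miR-424-5p had 386 ± 153 normalized counts in parenchyma against 569 ± 118 in the fat pad (SD, n = 12 each), a log2 difference of -0.64 (SE 0.27, limma adjusted p = 0.0309). miR-503-3p had 23.6 ± 6.9 in parenchyma against 46.9 ± 26.0 in the fat pad, a log2 difference of -0.82 (SE 0.26, limma adjusted p = 0.0049). The miR-424-5p call did not stand when values were rescaled to equal sums. The difference then came to -0.18 (limma adjusted p = 0.53, and 0.0212 to 0.53 over its 8 alternatives). miR-503-3p fell under the minimum mean on rescaling and was not tested there. In the 6 alternatives that tested miR-503-3p it was called each time (limma adjusted p = 0.0025 to 0.0098). The other 3 were not called, with log2 differences of -0.64 (SE 0.44) for miR-424-3p, -0.32 (SE 0.21) for miR-450a-2 and -0.05 (SE 0.21) for miR-450b, and the last 2 changed sign on rescaling, to 0.15 and 0.41. The log2 differences of the 5 had a median of -0.64, beside 0.37 over all miRNAs.

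Within libraries, where no scaling enters, miR-424-5p over miR-450b had a median of 0.22 in parenchyma against 0.32 in the fat pad (log2 difference -0.59, SE 0.16, two-sided permutation test, p = 0.0014, adjusted p = 0.0089 over the 31 ratio comparisons tested). miR-450b over miR-450a-2 had a median of 0.76 in parenchyma against 0.61 in the fat pad (log2 difference 0.27, SE 0.07, permutation p = 0.0020, adjusted p = 0.0096). All ratios were chosen after seeing the data, and the adjustment does not cover that choice.

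Against the liver, 4 of 4 tested members with values above 0 there were called higher in parenchyma, where 77.7% of all miRNAs were called, and 4 of 4 in the fat pad, where 79.4% were. miR-503-3p, at 0 in every liver library, is not counted, since it passed the minimum mean through the mammary samples alone and its 0 can stand for up to 31.0. With shares this high, the counts do not set the cluster apart. The sizes differed widely among the members. miR-424-3p averaged 289 ± 68 normalized counts in parenchyma and 478 ± 205 in the fat pad, against 43.1 ± 24.5 in the liver (SD, n = 12 each), with log2 differences of 3.13 and 3.77 (SE 0.44 each, limma adjusted p = 5.9e-08 and 1.2e-09). Milk replacer fed samples of both mammary tissues lay above all those of the liver in miR-424-3p, whose highest liver value was 97.8 against a lowest of 126 in parenchyma. Its partner arm miR-424-5p averaged 227 ± 104 in the liver, and its log2 differences were 0.87 for parenchyma and 1.51 for the fat pad (SE 0.27 each, limma adjusted p = 0.0041 and 5.3e-06).

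The arms of miR-424 therefore stood in another ratio in the liver. miR-424-5p over miR-424-3p had a median of 1.41 in parenchyma and 1.27 in the fat pad, against 5.55 in the liver. The log2 differences were -1.85 (SE 0.36, two-sided permutation test, p = 8.0e-05, adjusted p = 0.0016) and -1.85 (SE 0.38, permutation p = 0.00026, adjusted p = 0.0027). The liver value rests on 11 libraries, since miR-424-3p was at 0 in ad libitum replicate 6, and on at most 47 reads of miR-424-3p per library.

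By log2 difference, miR-450b differed least between the organs. miR-450a-2 came next, but against parenchyma its difference was close to that of miR-424-5p (0.82 and 0.87). The members were not compared with each other by a test. miR-450a-2 averaged 2347 ± 692 normalized counts in parenchyma and 2885 ± 822 in the fat pad, against 1397 ± 690 in the liver (log2 differences 0.82 and 1.14, SE 0.21 each, limma adjusted p = 0.00051 and 7.0e-06). miR-450b averaged 1695 ± 417 and 1773 ± 570, against 1335 ± 917 in the liver (0.52 and 0.57, SE 0.21 each, limma adjusted p = 0.0255 and 0.0149). The liver range of miR-450b, 653 to 3445, covered that of both mammary tissues (912 to 2932). Over all 48 samples its parenchyma difference was 0.10 (limma adjusted p = 0.641) and no longer called. Across the 8 alternatives this difference ranged from 0.10 to 1.26. miR-542-5p averaged 11.0 ± 2.5 in parenchyma and 11.4 ± 7.1 in the fat pad. It was listed at 0 in all 17 liver libraries, but 5 reads would there stand for 13.0 on average, so that a difference was not detectable at this depth. Fat pad samples were under the minimum mean and untested, with values of 0 to 20.9 in the ad libitum group and 9.28 to 20.7 in the restricted group, against 9.12 in 1 control sample and 0 in the other 3.

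**Figure D3:**
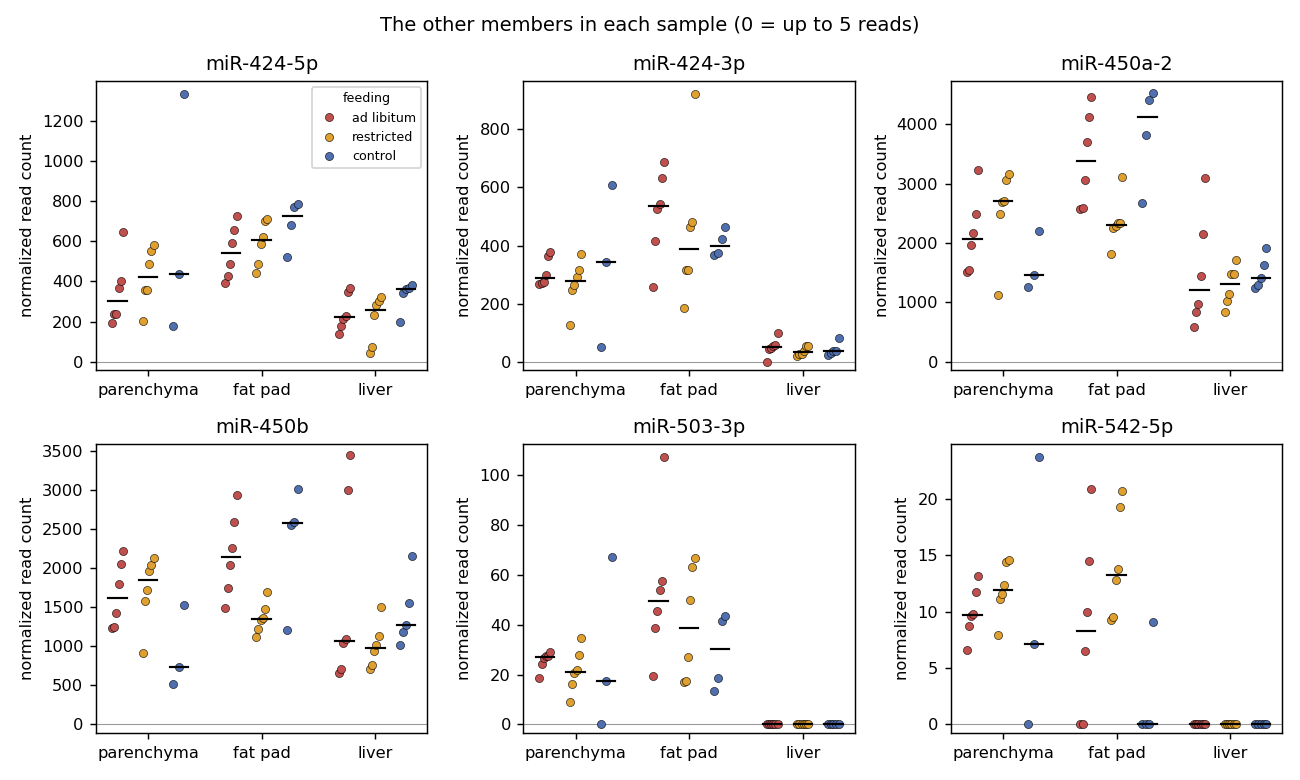
Normalized read counts of the other 6 members in each sample, by tissue and feeding group, with a black line at the group median and 0 standing for up to 5 reads. miR-424-3p and miR-503-3p are low or at 0 in the liver, and miR-450b in the fat pad is at 1495 to 2932 in the ad libitum and 1119 to 1691 in the restricted group.

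Ad libitum against restricted feeding called members in the fat pad alone, and these calls were not stable. There 2 of 5 tested members were called higher in the ad libitum group and 0 lower, in a comparison with 16.6% of miRNAs called. miR-450b had a lowest, median and highest value of 1495, 2144 and 2932 normalized counts in the ad libitum group, against 1119, 1351 and 1691 in the restricted group (log2 difference 0.64, SE 0.21, limma adjusted p = 0.0422). miR-450a-2 had 2567, 3381 and 4460 in the ad libitum group, against 1820, 2309 and 3101 in the restricted group (0.52, SE 0.17, limma adjusted p = 0.0466). Both groups overlapped at their ends. Both calls lay near the threshold: with 1 library left out at a time, 4 of 16 fits kept both, 4 kept 1 and 8 called neither, each member losing its call in 10, and the adjusted p ranged from 0.0099 to 0.102 for miR-450b and from 0.018 to 0.108 for miR-450a-2 over all alternatives. The median over the 5 was 0.44, beside -0.02 over all miRNAs.

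miR-424-5p was not called: it had 394, 540 and 728 normalized counts in the ad libitum fat pad, against 442, 604 and 711 in the restricted fat pad (log2 difference -0.13, SE 0.17, limma adjusted p = 0.629). Its ratio to miR-450b was chosen after seeing the data, a choice that no adjustment covers. This ratio separated the groups without overlap, at 0.19 to 0.29 in the ad libitum fat pad against 0.36 to 0.48 in the restricted fat pad. The log2 difference of this ratio was -0.77 (SE 0.12, two-sided exact permutation test, p = 0.0022, the smallest that 6 against 6 allows; adjusted p = 0.0096 over the 31 ratio comparisons), and it lay between -0.82 and -0.69 without any 1 library. miR-424-3p and miR-503-3p were not called (0.30, SE 0.31, and 0.44, SE 0.45).

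In parenchyma, ad libitum against restricted feeding called 0 of 6 members, and 0 of 6 at an unadjusted p under 0.05, in a comparison in which limma called 0% of 339 miRNAs. The log2 differences of these 6 members lay between -0.32 and 0.33, with standard errors between 0.29 and 0.71. In the liver 0 of 4 were called, also 0 at an unadjusted p under 0.05, with 0.324% of miRNAs called. miR-450b reached 2995 and 3445 normalized counts in ad libitum liver replicates 9 and 11, above the 714 to 1507 of the restricted group, while the other 4 ad libitum samples lay at 653 to 1099.

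Milk replacer feeding against control called 1 of the 6 tested members in parenchyma, where 45.4% of miRNAs were called. miR-450b had 1228, 1618 and 2216 normalized counts (lowest, median, highest) in the ad libitum group and 912, 1843 and 2130 in the restricted group, against 1524, 517 and 731 in control replicates 1, 2 and 18 (log2 difference 0.98, SE 0.33, limma adjusted p = 0.0216). It was no longer called without control replicate 2 (0.64, adjusted p = 0.146) or replicate 18 (0.89, adjusted p = 0.0631), and without control replicate 1 miR-503-3p was called as well (2.46, adjusted p = 0.0114). With the epithelial and endothelial miRNAs moving in the same comparison, feeding and tissue makeup cannot be told apart here either. The 3 controls were far apart in other members. miR-424-5p had 435, 1333 and 178 there, against 193 to 647 in milk replacer fed parenchyma. miR-424-3p had 608, 344 and 49.5, against 126 to 379. The order of the controls differed between these 2 arms, and neither arm was called.

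In the fat pad the same contrast called 0 of 5 members (1 of 5, miR-450a-2, at an unadjusted p under 0.05), with 11% of miRNAs called. miR-450a-2 had 2567, 3381 and 4460 in the ad libitum group and 1820, 2309 and 3101 in the restricted group, against 2672, 4527, 4405 and 3823 in the controls (log2 difference -0.44, SE 0.17, limma adjusted p = 0.0983). miR-450b had 1206, 2549, 2593 and 3008 in the controls (-0.38, SE 0.21, adjusted p = 0.215). Control replicate 2 was the lowest control in both, and without it both were called lower in milk replacer fed fat pad (-0.61, adjusted p = 0.0344, and -0.67, adjusted p = 0.0216). These differences had the opposite sign to that of miR-503-5p. In the liver 0 of 4 members were called (0 at an unadjusted p under 0.05), with 6.8% of miRNAs called and log2 differences between -0.72 and -0.22.

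The milk replacer effect on miR-450b was called as different in parenchyma from that in the fat pad and in the liver. In a fit over all 48 samples, chosen after seeing the data, its effect in parenchyma exceeded that in the fat pad by 1.36 on the log2 scale (SE 0.46, limma adjusted p = 0.0243) and that in the liver by 1.26 (SE 0.45, limma adjusted p = 0.0212). It was the 1 called of 5 tested members in each, where 25.8% and 40.3% of miRNAs were called. With such shares, the counts do not set the cluster apart. The 5 include miR-503-3p, which was at 0 in every liver library. Between the fat pad and the liver 0 of 5 were called, beside 11.3% of all miRNAs. For miR-503-5p, given without a test, the effect differed by 0.21 for parenchyma minus fat pad (SE 0.70), by 2.83 for parenchyma minus liver (SE 0.68) and by 2.63 for fat pad minus liver (SE 0.64). All but the last of these use the control parenchyma samples described above, and none was recomputed with single libraries left out.

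Whether the members moved together was asked across the 12 milk replacer fed samples of each tissue, for members with a mean of at least 10 that were above 0 in all 12. This gave 21 pairs in parenchyma, 15 in the fat pad and 6 in the liver, 42 in all. Of these, 21, 14 and 5 had a positive Pearson r, with medians of 0.54, 0.36 and 0.38, beside 0.02, 0.00 and 0.00 over all pairs of miRNAs that met the same limits. After Benjamini-Hochberg adjustment over the 42 pairs, 4, 2 and 1 passed. The points of 1 tissue share their libraries, and so depth and composition.

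The pair of miR-450a-2 and miR-450b passed in every tissue. Its Pearson r was 0.92 in parenchyma (permutation p = 0.00012, adjusted p = 0.0010; Spearman rho 0.79, permutation p = 0.0031, adjusted p = 0.0263), 0.92 in the fat pad (permutation p = 5.0e-05, adjusted p = 0.00098; rho 0.84, permutation p = 0.0011, adjusted p = 0.0119) and 0.88 in the liver (permutation p = 0.0001, adjusted p = 0.0010; rho 0.90, permutation p = 0.00025, adjusted p = 0.0056). Without the 2 samples farthest from the median of miR-450a-2, r was 0.80, 0.82 and 0.78.

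In parenchyma miR-424-5p also passed with both of them: r was 0.91 with miR-450a-2 (permutation p = 4.0e-05, adjusted p = 0.00098; rho 0.87, permutation p = 0.0004, adjusted p = 0.0056; 0.89 without 2 samples) and 0.89 with miR-450b (permutation p = 7.0e-05, adjusted p = 0.00098; rho 0.89, permutation p = 0.00028, adjusted p = 0.0056; 0.90 without 2 samples). In the fat pad the same pairs had r of 0.37 and 0.31, and in the liver 0.38 and 0.61, and whether r differed between tissues was not tested.

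The 3p arms passed with each other by Pearson's r in both mammary tissues, but not by Spearman's rho. miR-424-3p and miR-503-3p had r of 0.85 in parenchyma (permutation p = 0.0049, adjusted p = 0.0340; rho 0.65, permutation p = 0.0248, adjusted p = 0.116; 0.51 without 2 samples) and 0.72 in the fat pad (permutation p = 0.0075, adjusted p = 0.0450; rho 0.71, permutation p = 0.0123, adjusted p = 0.0740; 0.62 without 2 samples). In parenchyma restricted replicate 10, one of the samples left out, had the lowest miR-424-3p (126) and miR-503-3p (8.90). The arms of 1 hairpin did not reach the threshold with each other: r was 0.48 for miR-424 and 0.35 for miR-503 in parenchyma, and -0.04 and 0.48 in the fat pad. miR-503-5p passed with no other member. Its r lay between 0.35 and 0.54 in parenchyma, between 0.36 and 0.55 in the fat pad and between -0.19 and 0.38 in the liver. The medians over all pairs of members were 0.54, 0.36 and 0.38. With 12 samples per tissue, missing the threshold does not show that miR-503-5p moved apart from the others.

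**Figure D4:**
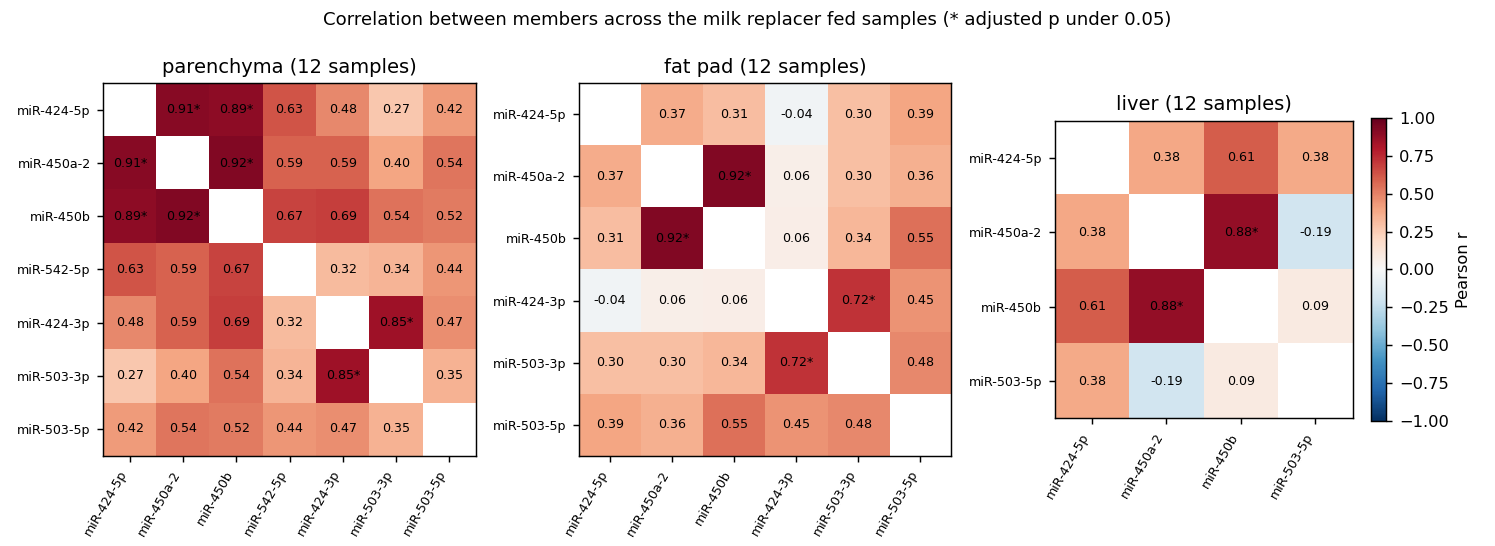
Pearson r of log2(value + 1) between members across the 12 milk replacer fed samples of each tissue, with an asterisk at an adjusted p under 0.05. miR-450a-2 and miR-450b are at 0.88 to 0.92 in the 3 tissues. The row of miR-503-5p holds no asterisk, which with 12 samples does not show that it moved apart.

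Of the 8 seed relatives outside the cluster (miR-15a, miR-15b, miR-16a, miR-16b, miR-195, miR-497, miR-103 and miR-107), milk replacer against control called 1 higher and 1 lower in parenchyma, 1 higher and 0 lower in the fat pad and 1 higher and 0 lower in the liver, beside 45.4%, 11% and 6.8% of all miRNAs called. These 8 were chosen by name, and their sequences were not compared. miR-103-2 was called lower in parenchyma (log2 difference -0.55, limma adjusted p = 0.0382) and higher in the liver (0.64, limma adjusted p = 0.0407). The one called higher in both mammary tissues was miR-497, which averaged 1623 ± 205 normalized counts in milk replacer fed parenchyma (SD, n = 12) against 1041 ± 597 in control parenchyma (SD, n = 3; log2 difference 0.77, limma adjusted p = 0.0289), and 1445 ± 295 in milk replacer fed fat pad against 942 ± 149 in control fat pad (n = 12 and 4; 0.60, limma adjusted p = 0.0274). Ad libitum against restricted feeding called 0 of 8 in each tissue. In parenchyma against the fat pad 1 was called higher, miR-15b (1.18, limma adjusted p = 4.4e-06), and 5 lower, with miR-195 at -1.63 (limma adjusted p = 3.5e-11), beside 74.5% of all miRNAs called.

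For 6 members, miR-542-5p left out, the 5 miRNAs outside the cluster with the most similar pattern were listed. Over the levels in all 48 samples, miR-503-5p was closest to miR-370 (Pearson r 0.83), miR-409a (0.80), miR-410 (0.79), miR-409b (0.79) and miR-665 (0.78). miR-503-3p was closest to miR-196b (0.94), miR-424-3p to miR-154b (0.90), miR-424-5p to miR-335 (0.82), miR-450a-2 to miR-199a-2-3p (0.78) and miR-450b to miR-6120-3p (0.77). After subtracting group means over the 36 milk replacer fed samples, the closest were miR-491 for miR-503-5p (0.62), miR-154b for miR-424-3p (0.89), miR-335 for miR-424-5p (0.75), miR-411c-5p for miR-450a-2 (0.77), miR-369-3p for miR-450b (0.80) and miR-3957 for miR-503-3p (0.64). The lists overlapped. For example, miR-199b was among the 5 closest in level to miR-424-3p, miR-424-5p and miR-450a-2, and miR-369-3p, miR-126-5p and miR-199a-1-3p were among the 5 closest to both miR-450a-2 and miR-450b after subtracting group means. These r are the highest among all miRNAs compared and describe likeness of pattern in these samples.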

How the data were processed

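Small RNA reads of 48 samples were deposited as normalized counts for 524 miRNAs, which the authors obtained by dividing counts by 1 size factor per library. Tools named in the submitters' processing notes, with no version, are bcl2fastq, FastQC, Trim Galore and DESeq2. The study names programs, genome references and a miRNA database for its own comparison of programs, but whether these made the deposited table is not stated in the sources used here. Values within each library stepped in multiples of a single amount (tolerance 0.01), from 6 steps upward, and steps were summed to estimate reads. Since the values are not counts, count models were not fitted. Columns with the authors' own comparison and mean in that table were left aside.

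Normalized counts were analysed as log2(value + 1) in limma 3.58.1 (R 4.3.3) with a mean-variance trend. A miRNA entered a fit when its mean there was at least 10, and was called at a Benjamini-Hochberg adjusted p under 0.05. A fold on this scale understates the change of low miRNAs, but can overstate it where libraries are listed at 0. Tissues were compared over the 36 milk replacer fed samples, and feeding groups within a tissue over all its samples, where milk replacer stands for the mean of the ad libitum and restricted groups. Ratios and correlations were tested two-sided by permutation in Python 3.11.15 (100000 resamples, exact for groups under 10). The fits were tested on simulated data with known changes. No 2 libraries within a group matched to within counting error (109 pairs checked).

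The members and lists were chosen with earlier results of these data known. Named miRNAs are all members, 8 seed relatives, 8 lists of cell type miRNAs and the most similar miRNAs for each member with a mean of at least 10. The lists not given with the results were striated muscle (3.11 to 6.22 over all samples), erythroid (5.45 to 10.51) and smooth muscle and stromal miRNAs (14.01 to 16.13). Alternatives were other pseudocounts (0.5 and 5), filters (none, mean of at least 50), rescaling to a sum of 1000000, other sets of samples, a replicate block and 1 library left out at a time. Ratios, tissue differences of effects, and adding the miR-450a names together were chosen after seeing the data.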

Additional observations from a re-analysis of the deposited data

Results flagged for a closer look

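Among the 7 distinct members, 4 values passed Dixon's limit for standing apart from the rest of their group, which marks about 1 in 20 groups by chance; 50 were tested. miR-450a-2 was at 1116 in restricted parenchyma replicate 10, against 2489 to 3159 in the other 5 samples. Liver control replicate 1 had the highest miR-424-3p of its group (83.3, against 24.6 to 38.3 in the other 4) and the lowest miR-424-5p (199, against 340 to 383). miR-542-5p was at 9.12 in fat pad control replicate 18, with the other 3 controls at 0, but there a 0 can stand for up to 11.7, so that this value cannot be said to stand apart.

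Between tissues, differences in the effect of milk replacer against control were flagged for 2 members, of which only miR-450b is given with a test. For miR-450b the parenchyma effect exceeded that of the fat pad by 1.36 and that of the liver by 1.26 on the log2 scale (limma adjusted p = 0.0243 and 0.0212). In these comparisons 25.8% and 40.3% of all miRNAs were called. For miR-503-5p the effect exceeded that of the liver by 2.83 in parenchyma and by 2.63 in the fat pad, given without a test because this member was singled out from results of the same table. Control parenchyma, with its low epithelial miRNAs, enters the differences that involve parenchyma.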

How the results depend on the processing

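Rescaling each library to a sum of 1000000 moved the median log2 difference of all miRNAs to 0.68 (0.37 as reported) for parenchyma against fat pad, 0.91 (0.46) for parenchyma against liver, 0.48 (0.22) for fat pad against liver, 0.14 (-0.02) for ad libitum against restricted in the fat pad, and 0.42 (0.13) in parenchyma, 0.10 (-0.01) in the fat pad and -0.16 (0.03) in the liver for milk replacer against control. The share of called miRNAs that were higher came to 74.2% (61.9% as reported), 73.0% (60.4%) and 60.3% (56.6%) in the 3 tissue comparisons, 72.5% (58.0%) for ad libitum against restricted in the fat pad, and 76.4% (66.2%) in parenchyma, 80.8% (66.7%) in the fat pad and 4.35% (23.8%) in the liver for milk replacer against control. The minimum mean of 10 was kept, so that rescaling left 277 miRNAs tested in place of 345 in the tissue comparisons. These medians and shares are therefore over different sets of miRNAs. For the members, rescaling left 0 lower in parenchyma relative to fat pad in place of 2, with miR-503-3p under the minimum mean and not tested. It turned miR-450a-2 and miR-450b to 0.15 and 0.41 there and gave 2 higher against control in parenchyma in place of 1. For ad libitum against restricted, it turned miR-450b in parenchyma (0.038) and miR-424-5p in the fat pad (0.019). Parenchyma against fat pad had 1 member lower with a mean of at least 50, which leaves miR-503-3p out, and 4 lower over all 48 samples. Without a filter 0 members were called for ad libitum against restricted in the fat pad. A pseudocount of 5 turned miR-424-3p in that contrast in the liver to 0.053.

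With 1 library left out at a time, members higher ranged from 0 to 2 for ad libitum against restricted in the fat pad and for milk replacer against control in parenchyma, and members lower from 0 to 2 for milk replacer against control in the fat pad. Log2 differences that were not called changed sign for ad libitum against restricted for miR-450b in parenchyma (-0.21 to 0.039), miR-424-3p in the liver (-0.60 to 0.72) and miR-450a-2 in the liver (-0.21 to 0.27). For milk replacer against control in parenchyma, miR-424-3p ranged from -0.71 to 1.09, miR-424-5p from -1.09 to 0.36, miR-503-3p from -0.59 to 2.46 and miR-542-5p from -0.27 to 1.24, where the sign changed without control replicate 18 or, for miR-424-5p, without control replicate 2. miR-424-3p ranged from -0.0062 to 0.22 in the fat pad and from -0.50 to 0.17 in the liver for that contrast. Of the correlated pairs, 2 passed in parenchyma over all its samples, and in the fat pad 4 passed on values centred on feeding groups and 1 on linear values. The causes were not tested.

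The labels do not say that replicate numbers shared between tissues mark an animal, and the data did not settle it: for parenchyma with fat pad, parenchyma with liver and fat pad with liver, 8, 4 and 6 of 12 same-numbered milk replacer fed pairs correlated above 0.1 (highest r 0.46, 0.36 and 0.24), and 5, 4 and 5 correlated best with their own number. With a replicate block the counts of members stood at 0 higher and 2 lower for parenchyma against fat pad, as without the block. They also stood at 5 higher for each mammary tissue against the liver. miR-503-3p is among these 5, but at 0 in every liver library its call carries no weight. Liver depth limits miR-503-3p and miR-542-5p, for which 5 reads stand for up to 31.0 normalized counts.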
